A study of Rattus norvegicus with 9 samples.

Results

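Arg2, Prodh, Oat, Glul, Glud1, Gpt, Got1, Got2, Gnmt and Fah encode 10 enzymes that handle arginine, proline, glutamine, glutamate, glycine and tyrosine, and their transcripts were followed in the gastrocnemius, a mixed-fibre calf muscle, of male Wistar rats weighing 250 g. All probe sets whose single gene symbol in the platform annotation is one of these were taken, which gave 15 of 31042 probe sets other than controls, for 10 of 14217 genes with a single symbol. The 3 groups had 3 animals each, with 1 array per animal (Affymetrix rat 230-2 expression arrays, total RNA). All animals carried an implanted pump that delivered propylene glycol for 7 days. It held no hormone in the vehicle group, dexamethasone at 0.7 mg/kg/day in the dexamethasone group, and the same dose of dexamethasone with testosterone in the combination group. Testosterone was dosed at 28 mg/kg/day by the sample labels but at 20 mg/kg/day by the design text. No testosterone-only group was analysed here.

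Skeletal muscle is the main store of protein in the body and, under glucocorticoids, releases amino acids, a large part of them as glutamine and alanine. Glutamine synthetase makes glutamine from glutamate and ammonia, the aminotransferases pass nitrogen between glutamate, alanine and aspartate, and glutamate dehydrogenase splits ammonia from glutamate. Arginase, ornithine aminotransferase and proline dehydrogenase carry the carbon of arginine and proline towards glutamate. Glycine methyltransferase moves a methyl group from S-adenosylmethionine to glycine and is best known from liver, as is fumarylacetoacetate hydrolase, the last enzyme of tyrosine breakdown.

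The deposited values are linear intensities, and the median per array ran from 25.8 to 132.1. They were quantile normalized as log2(intensity + 16), and every level and difference below is on that scale, where 4 is the value of a probe set with no signal. The labels name no batch, but the deposited scale and the spike-in controls divide the arrays into 3 sets, called technical batches here. Batch C, dexamethasone replicate 3 and combination replicate 3, stood apart in a control for RNA integrity: the ratio of 3' to 5' Gapdh signal was 4.94 and 6.22, and 1.06 to 1.17 on the other 7 arrays. Batch A holds vehicle replicates 1 and 3 and replicate 1 of each hormone group, and batch B holds the 3 arrays numbered 2. Arrays are listed below in the order of replicates 1, 2 and 3. Nothing in the labels links animals across groups, and the number of arrays limits the precision.

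Transcripts of 6 of the 10 genes were higher in the dexamethasone group than in vehicle, and those of Glud1, Gpt, Got1 and Got2 did not pass in either direction. The mean difference ran from 2.08-fold in Oat to 19.5-fold in Arg2. The set was selected on earlier results of these data, with Arg2, Prodh, Gnmt and Glul chosen by their difference between dexamethasone and vehicle and Fah by its difference between the combination and dexamethasone. The values of both comparisons are therefore a description, and no test of them is given as support.

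Arg2, the mitochondrial arginase that splits arginine into ornithine and urea, had signals of 5.58, 6.44 and 4.76 in vehicle, 11.01, 9.33 and 9.30 in dexamethasone, and 6.31, 6.77 and 8.47 in the combination. Every dexamethasone array lay above every vehicle array, and 2 of the 3 combination arrays lay close to the highest vehicle array while replicate 3 stood between the groups. The dexamethasone mean exceeded the vehicle mean by 4.28 ± 0.67 (SE, n = 3 per group), or 19.5-fold. Every SE given with a difference comes from the limma fit over all 9 arrays, not from the compared groups alone.

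Prodh encodes proline dehydrogenase, which begins the oxidation of proline in mitochondria. Its signal was 5.31, 4.70 and 5.81 in vehicle, 9.25, 8.77 and 7.94 in dexamethasone, and 5.54, 6.98 and 5.71 in the combination. Dexamethasone and vehicle did not overlap, and the difference of means was 3.38 ± 0.47 (10.4-fold). A further Prodh probe set (1391371_at) had signals of 4.27 to 4.70 on all 9 arrays, near the floor of the scale. It was the 1 probe set of the 15 that did not pass the filter on low values and was not tested.

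Oat, ornithine aminotransferase, links ornithine to glutamate and proline, and it moved within a narrow band at a high signal. Its values were 10.58, 10.74 and 10.68 in vehicle, 11.52, 11.73 and 11.93 in dexamethasone, and 11.17, 11.17 and 11.44 in the combination. The 3 groups did not overlap with one another. Dexamethasone lay 1.06 ± 0.18 above vehicle (2.08-fold).

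Glul, glutamine synthetase, is measured by 3 probe sets. The brightest (1386870_at), which represents the gene here, gave 13.04, 12.99 and 12.84 in vehicle, 14.44, 14.45 and 14.40 in dexamethasone, and 13.39, 14.01 and 14.02 in the combination. On this probe set the dexamethasone arrays lay close together, with an SD of 0.03, against a median SD of 0.32 over all tested probe sets in that group. The other Glul probe sets had SDs of 0.41 (1367632_at) and 1.51 (1367633_at) there. On 1386870_at the difference between dexamethasone and vehicle was 1.47 ± 0.21 (2.78-fold).

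Gnmt, glycine methyltransferase, had signals of 4.35, 6.22 and 6.17 in vehicle, 8.86, 9.23 and 9.003 in dexamethasone, and 6.59, 6.51 and 6.84 in the combination. Vehicle replicate 1 was close to the floor, and the dexamethasone and combination arrays each lay within a narrow range. The dexamethasone mean was 3.46 ± 0.44 above vehicle (10.98-fold).

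Fah, fumarylacetoacetate hydrolase, was steady in vehicle at 6.40, 6.51 and 6.42. It read 10.47, 8.89 and 8.93 in dexamethasone and 6.23, 6.72 and 6.92 in the combination. Combination replicate 1 lay below all vehicle arrays and the other two lay above them. Dexamethasone exceeded vehicle by 2.98 ± 0.40 (7.91-fold). Batch A gave 4.06 and batch B 2.38 for it.

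**Figure D1:**
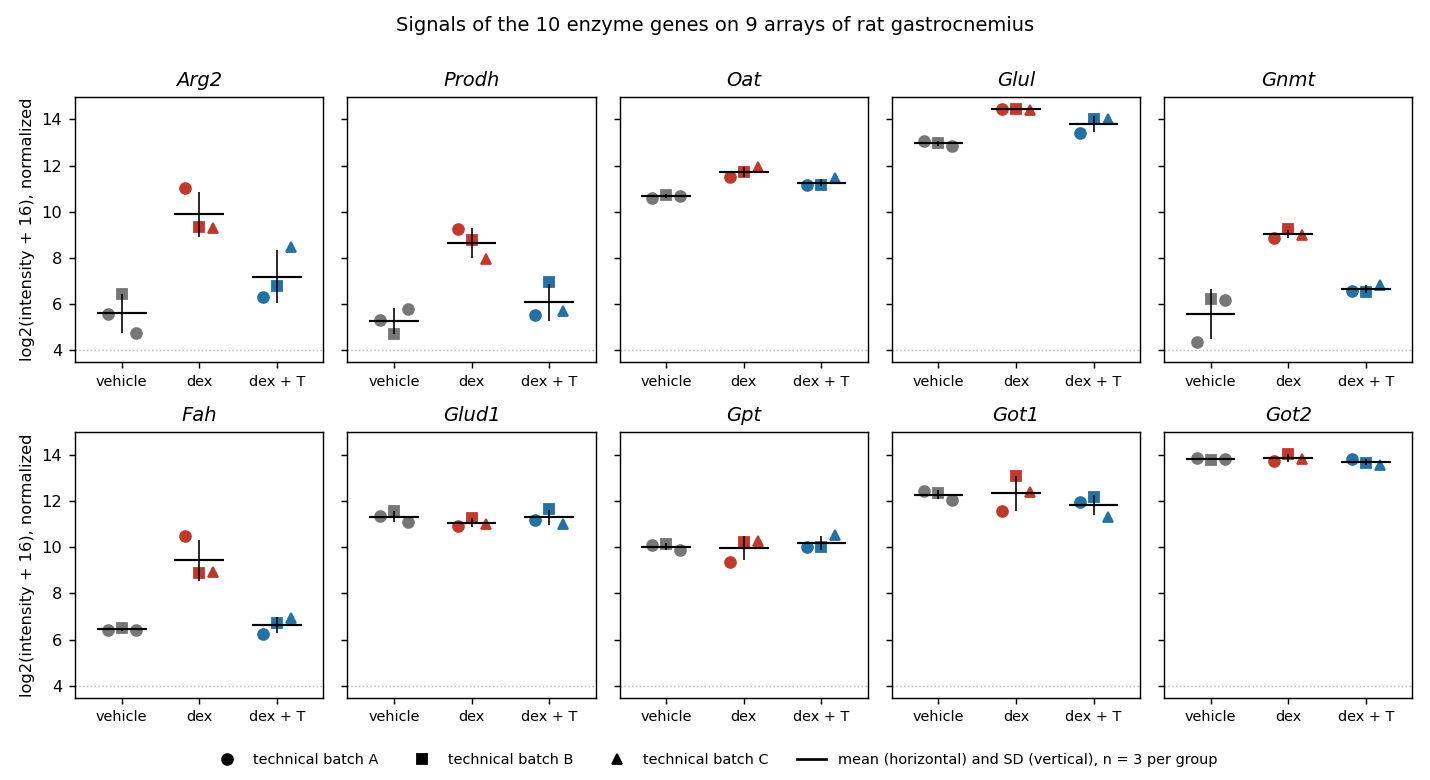
Normalized signal, log2(intensity + 16), of the 10 enzyme genes (vertical axis) on the 9 arrays by group (horizontal axis: vehicle, dexamethasone, dexamethasone with testosterone). Each symbol is 1 animal and its shape gives the technical batch; the horizontal line is the group mean, the vertical line the SD, and the dotted line the floor at 4. Arg2, Prodh, Oat, Glul, Gnmt and Fah are higher in all 3 dexamethasone arrays than in any vehicle array, and Glud1, Gpt, Got1 and Got2 overlap between groups.

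Each of the 6 genes was also higher with dexamethasone inside both batches that hold a vehicle array. In batch A, Arg2 differed by 5.83, Prodh by 3.69, Gnmt by 3.61 and Oat by 0.89. In batch B the same genes differed by 2.89, 4.07, 3.02 and 0.99. The Glul and Oat values were nearly the same in both batches, while those of Arg2 and Fah were larger in batch A.

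The deposited intensities of batch B, whose 3 arrays were deposited on a common scale, show the same without quantile normalization or pseudocount. For Arg2 they were 143.5 in vehicle, 1062.3 in dexamethasone and 152.5 in the combination. For Gnmt they were 119 in vehicle, 998.1 in dexamethasone and 122.8 in the combination. Fah read 150.9 in vehicle, 786.2 in dexamethasone and 145.7 in the combination, so for these 3 genes the combination array stood close to the vehicle array. Prodh read 19.7, 725 and 180.8 in the same order, and its combination array stood between the other two. These readings rest on a single array per group. In batch A, on the normalized scale, the combination differed from vehicle by 1.14 for Arg2, 1.33 for Gnmt and -0.18 for Fah.

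The mean of Arg2, Prodh and Gnmt in vehicle (5.60, 5.27 and 5.58) was below 5.75, the level that the mean over all arrays had to reach to be tested. Their means in the same order were 9.88, 8.65 and 9.03 in dexamethasone and 7.19, 6.07 and 6.65 in the combination. These genes thus entered the test through the arrays of the hormone groups, and a difference from vehicle was built into their entry. Their folds also depend on the pseudocount, since deposited vehicle intensities went down to 5.3 for Arg2 and 1.7 for Gnmt. With a pseudocount of 1 in place of 16 the differences were 4.997 for Arg2, 4.20 for Prodh and 4.36 for Gnmt, and those of Arg2 and Gnmt no longer passed.

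The intervals of Glud1, Gpt, Got1 and Got2 all included 0. Glud1, glutamate dehydrogenase, had 11.33, 11.55 and 11.09 in vehicle, 10.91, 11.28 and 10.99 in dexamethasone, and 11.19, 11.65 and 11.02 in the combination. Its difference between dexamethasone and vehicle was -0.26 (95% interval -0.77 to 0.25), and that of its second probe set (1387878_at) was -0.19 (-0.77 to 0.39).

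Gpt, the cytosolic alanine aminotransferase, had 10.07, 10.13 and 9.87 in vehicle, 9.35, 10.23 and 10.28 in dexamethasone, and 10.005, 10.02 and 10.52 in the combination. Dexamethasone replicate 1 was the lowest of the 9 arrays, and the difference of means was -0.07 (95% interval -0.70 to 0.56). With arrays scaled to a common median in place of quantile normalization, the median of all tested probe sets moved from 0.01 to 0.20 between dexamethasone and vehicle. Glud1 and Gpt then stood at 0.19 and 0.32, so neither has a settled sign.

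Got1 and Got2, the cytosolic and mitochondrial aspartate aminotransferases of the malate-aspartate shuttle, are among the brightest of the 10 genes. Got1 had 12.41, 12.35 and 12.04 in vehicle, 11.57, 13.07 and 12.37 in dexamethasone, and 11.96, 12.16 and 11.32 in the combination. The dexamethasone arrays spread over more than the whole vehicle range, and the difference was 0.07 (95% interval -0.77 to 0.91). Got2 had 13.84, 13.77 and 13.83 in vehicle, 13.71, 14.04 and 13.83 in dexamethasone, and 13.82, 13.65 and 13.55 in the combination. Its difference of 0.05 had an interval of -0.34 to 0.44, the narrowest of the 4 genes. The second, dim Got2 probe set (1389871_at) differed by -0.61 (-1.23 to 0.01). The Oat estimate of 1.06 lies above the intervals of Glud1, Gpt, Got1 and Got2. The interval of Oat itself (0.64 to 1.47) overlaps that of Got1, so a similar rise in Got1 is not excluded. Got1 differed by -0.66 within batch A and by 0.72 within batch B.

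In dexamethasone against vehicle, 7 of the 14 tested probe sets passed in the upward direction (limma, adjusted p below 0.05) and 0 in the downward one, and 7 had an unadjusted p below 0.05. They belong to 6 of the 10 genes. Of all 18625 tested probe sets, 1.05% passed, 0.569% upward and 0.483% downward, and 15.5% had an unadjusted p below 0.05. Of all 10428 tested genes, 0.738% passed upward. Dexamethasone arrays lay above all vehicle arrays in the same 6 genes and in 15.2% of all tested genes, and below all of them in 0 of the 10 and in 11.5% of all. The median difference was 1.27 over the 10 genes and 0.04 over all genes. As the choice of genes rested on this comparison, nothing is read from these shares. The number of member probe sets that passed depended on single animals: 1 without vehicle replicate 1, 0 without vehicle replicate 2 or 3, 1 without dexamethasone replicate 1 and 0 without dexamethasone replicate 2. It was 6 without dexamethasone replicate 3, 4 without combination replicate 2, and 8 without both arrays of batch C. In those fits the number of probe sets passing in the whole table moved as well, from 196 to between 1 and 460.

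Starts of transcription are shown for 4 of the 6 genes that were higher with dexamethasone, so that they can be read side by side. Of the 10 genes, 7 had an entry in the RefSeq promoter table of build GRCr8, with 8 starts in all, 2 of them for Glul. Each line gives the 250 bases before the start, 5' to 3' on the strand of the gene. Capitals mark CCAAT or its reverse complement ATTGG, and CCACCC or GGGTGG.
Gnmt, chr9:21752032-21752281, plus strand: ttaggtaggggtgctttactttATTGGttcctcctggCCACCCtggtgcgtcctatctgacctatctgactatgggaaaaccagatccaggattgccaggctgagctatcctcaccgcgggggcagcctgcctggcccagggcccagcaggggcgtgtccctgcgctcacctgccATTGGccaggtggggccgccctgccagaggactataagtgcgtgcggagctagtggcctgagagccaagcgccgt
Fah, chr1:147980606-147980855, minus strand: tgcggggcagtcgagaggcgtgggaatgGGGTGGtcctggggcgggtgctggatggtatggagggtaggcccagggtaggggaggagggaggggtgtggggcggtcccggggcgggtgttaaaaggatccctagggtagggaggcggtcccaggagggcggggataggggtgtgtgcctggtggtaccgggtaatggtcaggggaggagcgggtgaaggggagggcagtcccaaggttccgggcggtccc
Oat, chr1:196797755-196798004, minus strand: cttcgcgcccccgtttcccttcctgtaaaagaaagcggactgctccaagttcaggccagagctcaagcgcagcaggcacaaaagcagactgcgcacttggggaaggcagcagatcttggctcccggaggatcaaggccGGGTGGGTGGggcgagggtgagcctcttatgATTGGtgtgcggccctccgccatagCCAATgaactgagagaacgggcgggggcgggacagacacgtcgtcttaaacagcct
Glul, upstream start, chr13:68519250-68519499, plus strand: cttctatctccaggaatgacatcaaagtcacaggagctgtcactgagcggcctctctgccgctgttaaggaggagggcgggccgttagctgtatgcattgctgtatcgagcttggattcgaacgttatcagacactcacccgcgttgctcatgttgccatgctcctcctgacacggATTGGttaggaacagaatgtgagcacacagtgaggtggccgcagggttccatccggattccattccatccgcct
Glul, downstream start, chr13:68575816-68576065, plus strand: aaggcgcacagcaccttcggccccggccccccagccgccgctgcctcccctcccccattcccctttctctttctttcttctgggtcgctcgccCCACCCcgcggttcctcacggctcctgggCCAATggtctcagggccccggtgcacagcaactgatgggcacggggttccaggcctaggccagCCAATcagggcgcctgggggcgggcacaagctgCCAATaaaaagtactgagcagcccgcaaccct

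CCAAT in either orientation occurred in 34% of the 33469 promoter stretches of the same length and CCACCC in 26.1%. Gnmt and Oat had 2 CCAAT matches each, Glul 1 and 3 at its upstream and downstream start, Fah 0 and Got1 6. CCACCC matched once in Gnmt, once in Fah, 2 times in Oat, where the matches share 2 bases, and once at the downstream start of Glul. Neither was found at Glud1 or Got2. The full glucocorticoid response element, which is AGAACA and TGTTCT with 3 bases between them, was present in 0.012% of all stretches, AGAACA on its own in 17.5%, the amino acid response element TGATGNAAT in 0.944% and TATAAA in 12.9%. None of these 4 was present, on either strand, in the 8 stretches of the 7 genes, which says only that these letters are not in these windows.

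With testosterone added to dexamethasone, the same 6 genes had lower means than with dexamethasone alone. Fah was the 1 gene that passed, just under the threshold (adjusted p = 0.049, limma). Combination arrays lay below all dexamethasone arrays in 6 of the 10 genes and in 8.66% of all tested genes, and above them in 0 of the 10 and in 7.68% of all. Of the 14 tested probe sets 1 passed downward and 0 upward, and 6 had an unadjusted p below 0.05. Of all tested probe sets 0.113% passed, 0.043% downward and 0.0698% upward, and 11% had an unadjusted p below 0.05. This comparison was also in view when the genes were chosen, and it shares the dexamethasone arrays with the preceding one, so nothing is read from the opposite signs.

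Fah fell by 2.81 ± 0.40 (SE, n = 3 per group), a 7.00-fold difference, with -4.24, -2.17 and -2.01 within batches A, B and C. It did not pass without the 2 arrays of batch C, where Fah stood at -3.08, or without any one of 8 of the 9 arrays, the exception being dexamethasone replicate 3. With technical batch as a term in the fit it kept its size and did not pass (adjusted p = 0.0688, limma). The differences of Prodh and Gnmt, of similar size, did not pass: -2.58 ± 0.47 and -2.39 ± 0.44 (adjusted p = 0.0852 for each, limma). Among the alternative settings Fah passed in 5 of 18, Gnmt in 4 of 18 and Prodh in 2 of 17, so Fah is not set apart from them. Within batches A, B and C, Gnmt differed by -2.28, -2.72 and -2.16 and Prodh by -3.71, -1.79 and -2.23, so each was lower in all 3 pairs of arrays. Arg2 differed by -2.70 ± 0.67, and its pairs were spread widely, at -4.69, -2.56 and -0.83.

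Among the brighter genes the differences were smaller and did not pass. Oat differed by -0.47 ± 0.18 and Glul by -0.63 ± 0.21, and both were lower within each batch. The other Glul probe sets differed by -0.93 ± 0.42 (1367632_at) and -1.14 ± 0.79 (1367633_at), and on both the combination overlapped with dexamethasone. Glud1 differed by 0.22 (95% interval -0.29 to 0.74), Gpt by 0.23 (-0.40 to 0.86), Got1 by -0.52 (-1.36 to 0.32) and Got2 by -0.19 (-0.58 to 0.20). The median over the 10 genes was -0.57, and over all genes it was 0.00 to 2 decimals (-0.00096).

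Set against vehicle, the combination group had a higher mean in most of these enzymes, but 0 of the 14 tested probe sets passed (limma), as did 0% of all 18625. At an unadjusted p below 0.05 there were 6 of the 14 and 6.12% of all tested. These 6 did not all go in the same direction and include more than 1 probe set of the same gene. Arg2, Gnmt, Oat and the Glul probe sets 1386870_at and 1367632_at were higher. The dim Got2 probe set (1389871_at) was lower, at -0.63 ± 0.28 (unadjusted p = 0.0464, limma), and its arrays overlapped with vehicle. Combination arrays lay above all vehicle arrays in 3 of the 10 genes, Glul, Gnmt and Oat, and in 8.45% of all tested genes, and below them in 0 of the 10 and in 6.53% of all. The median difference was 0.38 over the 10 genes and 0.04 over all. This comparison shares the vehicle arrays by which Arg2, Prodh, Gnmt and Glul were chosen, and the combination arrays by which Fah was. It is therefore not independent of the choice of genes, and nothing is read from these shares. Glul stood 0.85 ± 0.21 above vehicle (adjusted p = 0.802, limma), Gnmt 1.07 ± 0.44 (adjusted p = 0.815) and Oat 0.59 ± 0.18 (adjusted p = 0.802). The Gnmt difference rested in large part on vehicle replicate 1, without which it was 0.46. Arg2 overlapped with vehicle at a difference of 1.59 ± 0.67 (adjusted p = 0.815), which was 0.93 without combination replicate 3 and 0.91 without both arrays of batch C.

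Prodh and Fah overlapped with vehicle as well. Prodh differed by 0.80 ± 0.47 (adjusted p = 0.849, limma), with -0.02 in batch A and 2.28 in batch B, and with 0.34 when combination replicate 2 was left out and 0.51 when vehicle replicate 2 was. Fah differed by 0.18 ± 0.40 (adjusted p = 0.953), with -0.18 in batch A and 0.20 in batch B. Glud1, Gpt, Got1 and Got2 differed by -0.04, 0.16, -0.45 and -0.14, and all 4 overlapped with vehicle. Batch C has no vehicle array, so comparisons with vehicle have no within-batch value there.

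**Figure D2:**
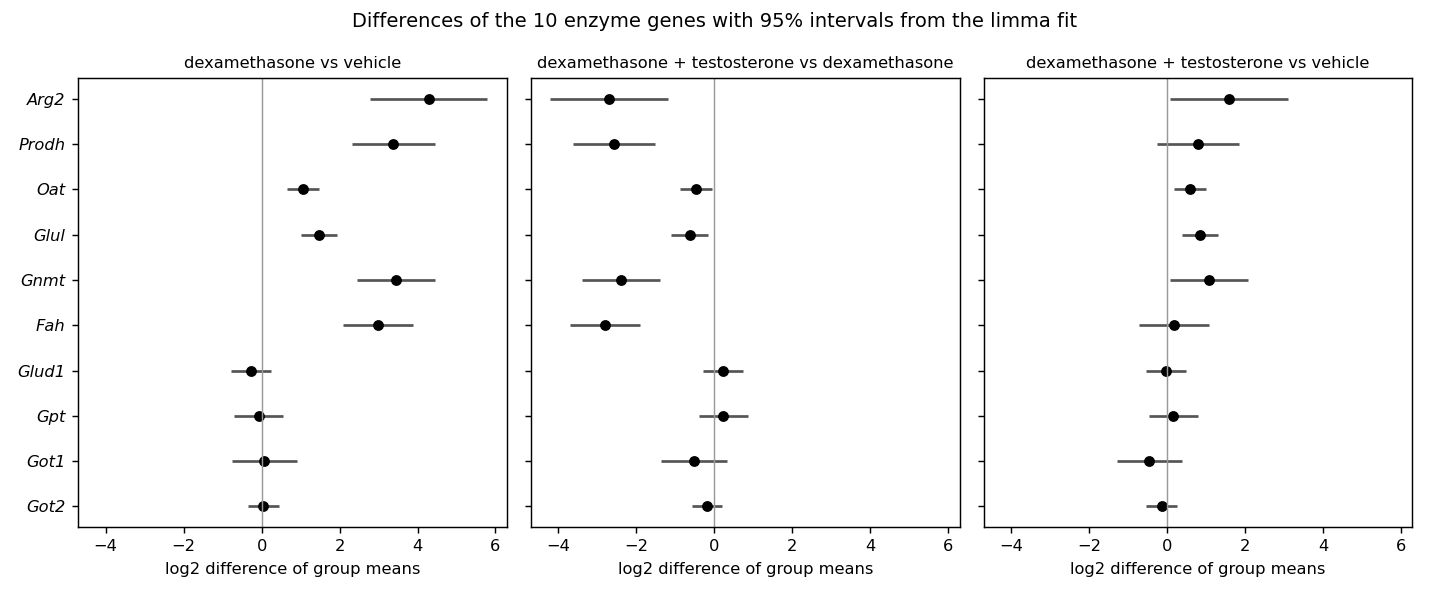
Difference of group means on the log2 scale (horizontal axis) for the 10 enzyme genes (vertical axis) in the 3 comparisons; points are estimates and lines 95% intervals from the limma fit over 9 arrays. Against vehicle, dexamethasone differs most in Arg2 (4.28), and against dexamethasone the combination differs most in Fah (-2.81); Glud1, Gpt, Got1 and Got2 have intervals that include 0 in all 3 comparisons.

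The 3 Glul probe sets differed on the arrays of batch C. On 1386870_at dexamethasone replicate 3 lay 0.05 below the mean of the other dexamethasone arrays, on 1367632_at 0.70 below, and on 1367633_at 2.62 below. The last of these read 11.90, 12.06 and 11.64 in vehicle, 14.00, 14.06 and 11.41 in dexamethasone, and 12.67, 12.91 and 10.48 in the combination, so that both arrays of batch C fell under the lowest vehicle array. Its difference between dexamethasone and vehicle was 1.29 ± 0.79 and did not pass, and it was 2.18 and passed without the 2 arrays. On 1367632_at the values were 11.75, 10.91 and 10.996 in vehicle, 13.83, 13.74 and 13.09 in dexamethasone, and 11.69, 13.28 and 12.89 in the combination, with a difference of 2.34 ± 0.42 between dexamethasone and vehicle. Within batches A and B the 3 probe sets gave 1.497 and 1.46 (1386870_at), 2.46 and 2.83 (1367632_at), and 2.22 and 2.00 (1367633_at), all upward. The Gapdh ratio of the same arrays is given above, and its part in the Glul values was not tested.

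**Figure D3:**
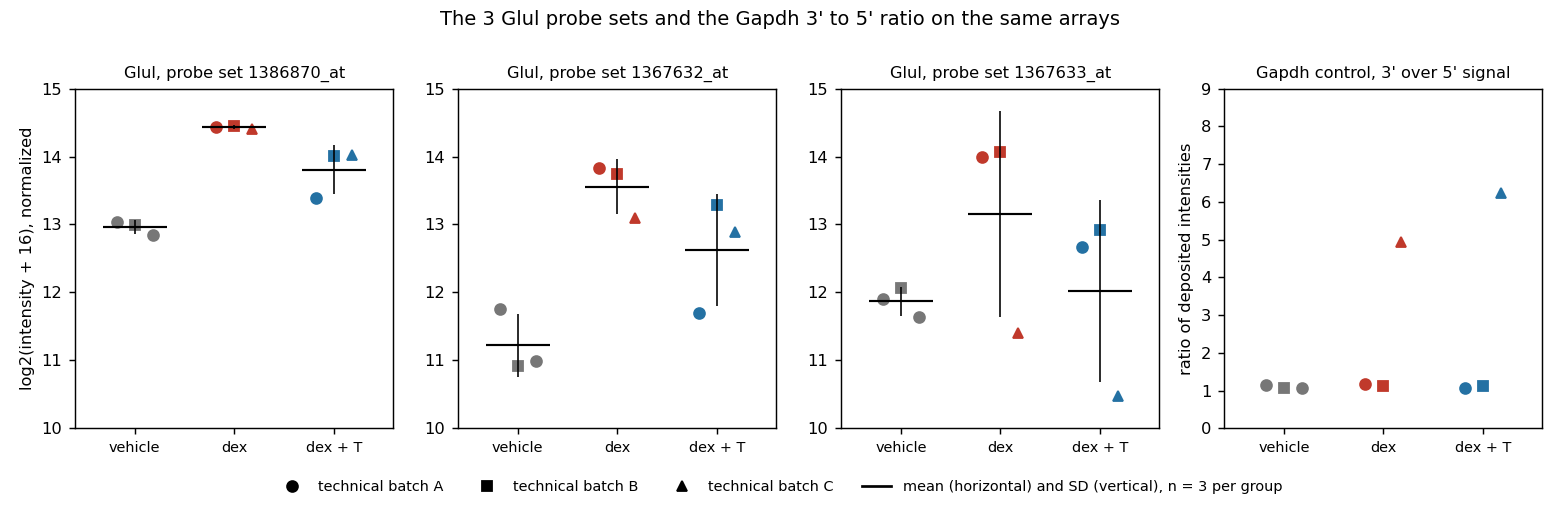
The first 3 panels show the normalized signal of each Glul probe set, log2(intensity + 16), on the vertical axis by group, with the mean (horizontal line) and SD (vertical line) of 3 arrays; the last panel shows the ratio of Gapdh control signal at the 3' end to that at the 5' end. Triangles are the 2 arrays of batch C, which have Gapdh ratios of 4.94 and 6.22 and, on 1367633_at, Glul signals of 11.41 and 10.48, below every other array of the plot for that probe set.

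From 6 lists of pathway genes, 61 genes besides the 10 were tested, of 89 on the array and 99 listed. In dexamethasone against vehicle 0 of them rose and 3 fell (limma, adjusted p below 0.05), against 0.738% and 0.566% of all genes. At an unadjusted p below 0.05, 8 were higher and 8 lower, beside 15.5% of all tested probe sets in both directions together. The median difference of the 61 genes was -0.03, beside 0.04 over all genes. In the combination against dexamethasone 1 of the 61 rose and 0 fell, against 0.0767% and 0.0671% of all genes. At an unadjusted p below 0.05, 5 were higher and 6 lower, beside 11% of all tested probe sets.

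By list, the other genes of arginine, proline and ornithine metabolism numbered 12, of which 0 rose and 2 fell with dexamethasone, with a median of -0.21. Those of glutamine, glutamate and the transaminases numbered 9, of which 0 rose and 1 fell (median -0.27). The malate-aspartate shuttle with the mitochondrial carriers (7 genes, median -0.09), glycine, serine and methyl groups (17 genes, median -0.02), tyrosine breakdown (5 genes, median 0.04) and amino acid transport (11 genes, median 0.24) had 0 in either direction. With so few of all genes passing, these counts say little about the 61.

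Several of these genes had differences as large as that of Oat without passing. The 4 given here, all higher with dexamethasone, were named after their values were seen, and Gatm, which was lower, is given further on. Slc7a6, a carrier of cationic and large neutral amino acids, had 8.03, 7.72 and 8.16 in vehicle, 9.91, 9.78 and 8.82 in dexamethasone, and 7.86, 7.91 and 8.54 in the combination. Its difference was 1.54 ± 0.32 between dexamethasone and vehicle (adjusted p = 0.0612, limma) and -1.40 between the combination and dexamethasone (adjusted p = 0.134). Slc25a22, a mitochondrial glutamate carrier, stood at 1.46 (adjusted p = 0.169) and -1.21 (adjusted p = 0.385) in these comparisons. Slc38a4, an amino acid transporter of the plasma membrane, stood at 1.11 (adjusted p = 0.0919) and -0.76 (adjusted p = 0.345), and the aminotransferase gene Kyat3 at 1.07 (adjusted p = 0.12) and -0.98 (adjusted p = 0.248). In all 4 genes every dexamethasone array lay above every vehicle array, as in 15.2% of all tested genes. Since they were picked by their values, nothing is read from this.

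The 3 genes that fell with dexamethasone were Gamt, Gadl1 and Ddah2. Gamt, which forms creatine from a product of arginine and glycine, had 9.54, 9.87 and 9.83 in vehicle, 8.32, 8.27 and 8.08 in dexamethasone, and 9.15, 9.18 and 9.37 in the combination. The groups did not overlap, and it fell by 1.52 ± 0.18 (adjusted p = 0.0166, limma). Gatm, which precedes it in creatine synthesis, had 8.28, 8.56 and 8.74 in vehicle and 7.63, 6.87 and 7.61 in dexamethasone, a difference of -1.15 ± 0.24 that did not pass (adjusted p = 0.0635). It was added after its value was seen.

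Gadl1, a decarboxylase of acidic amino acids, had 11.75, 11.59 and 11.91 in vehicle, 8.89, 9.0001 and 9.97 in dexamethasone, and 11.51, 11.42 and 11.75 in the combination. Dexamethasone arrays lay below all others, and vehicle and combination overlapped. It fell by 2.46 ± 0.29 with dexamethasone (adjusted p = 0.0166, limma) and was the gene that rose when testosterone was added, by 2.27 ± 0.29 (adjusted p = 0.036). The rise did not pass without any one of 8 of the 9 arrays, dexamethasone replicate 3 being the exception, with adjusted p up to 0.143.

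Ddah2, which breaks down methylated arginine, had 7.45, 8.17 and 7.91 in vehicle, 5.29, 6.44 and 6.30 in dexamethasone, and 7.36, 7.06 and 7.15 in the combination. It fell by 1.83 ± 0.32 with dexamethasone (adjusted p = 0.0378, limma). The calls of Gamt and Gadl1 with dexamethasone were lost without any one vehicle array or without dexamethasone replicate 1 or 2, with adjusted p up to 0.104. That of Ddah2 was also lost without combination replicate 1 or 2, with adjusted p up to 0.165. With median scaling Gamt and Gadl1 did not pass (adjusted p = 0.11 and 0.0594).

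Of the partner enzymes of the 10 genes, 3 were dim and 5 were tested, of which 0 passed in dexamethasone against vehicle. Arg1, the cytosolic arginase of liver, and Prodh2 did not pass the filter: Arg1 read 5.46 to 6.05 in vehicle and 5.23 to 5.54 in dexamethasone, and Prodh2 4.72 to 5.11 and 4.40 to 5.52. Tat, tyrosine aminotransferase, which starts tyrosine breakdown and is a classical glucocorticoid target in liver, stayed between 4.17 and 4.39 on all 9 arrays. Hpd, the next step towards Fah, differed by 1.03 ± 0.46 between dexamethasone and vehicle (adjusted p = 0.32, limma). Gpt2, the mitochondrial alanine aminotransferase, differed by -1.04 ± 0.46 (adjusted p = 0.32). Aldh4a1, which follows Prodh in proline oxidation, differed by -0.21 ± 0.17 (adjusted p = 0.582), Shmt1, which interconverts serine and glycine, by -0.03 ± 0.35 (adjusted p = 0.976), and Mat2a, which makes S-adenosylmethionine, by -0.57 ± 0.19 (adjusted p = 0.184). Dexamethasone arrays lay above all vehicle arrays in Hpd and below all of them in Aldh4a1 and Mat2a, and the groups overlapped in Gpt2 and Shmt1.

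**Figure D4:**
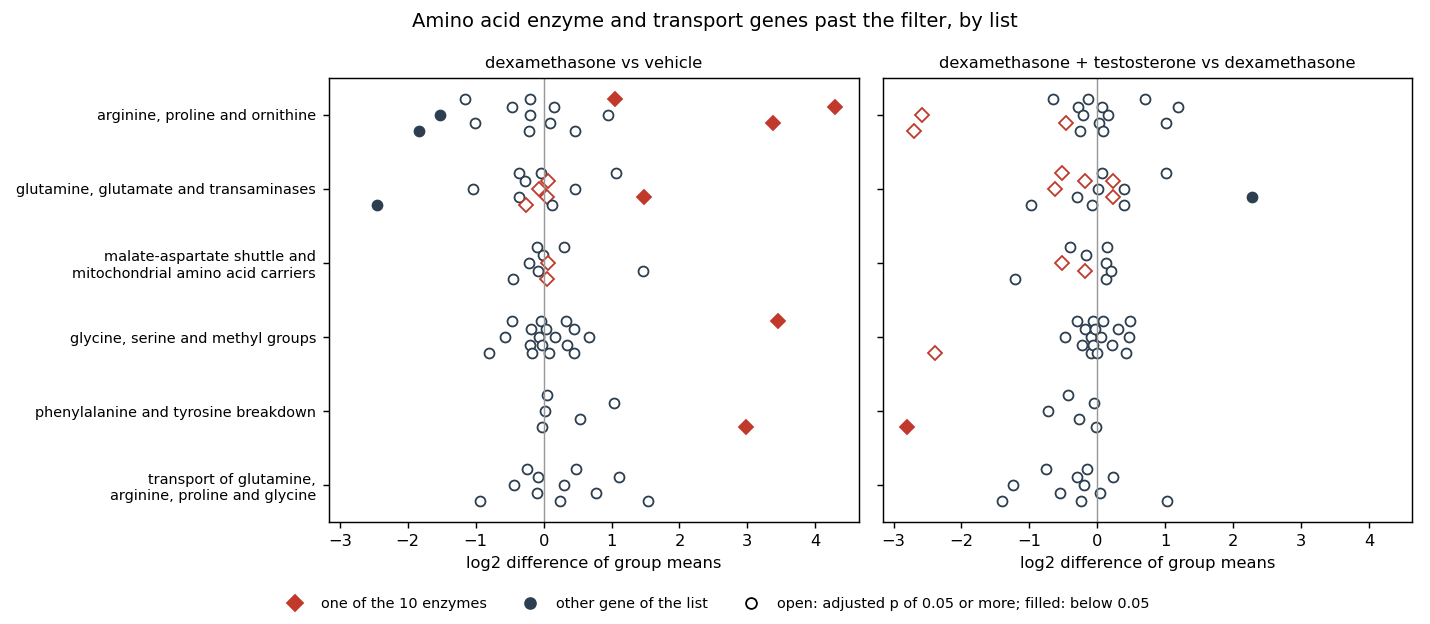
Difference of group means on the log2 scale (horizontal axis) of each tested gene in 6 pathway lists (vertical axis), for dexamethasone against vehicle (left) and the combination against dexamethasone (right). Red diamonds are the 10 enzymes, dark circles other genes of the list, filled where the adjusted p is below 0.05; a gene in more than 1 list appears in each. On the left the filled diamonds lie between 1.06 and 4.28 and the filled circles between -2.46 and -1.52.

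Likeness of pattern was measured by Pearson r over the 9 arrays, which share batches and hold the group differences the 6 genes were chosen by, so that it describes those differences as well. By this measure the genes most like Arg2 among 10418 others were Zbtb44 (r = 0.99), H6pd, which makes NADPH for glucocorticoid activation (0.99), and Lclat1 (0.98). For Prodh they were Retreg1 (0.98), Tomm40 (0.97) and Mrps5 (0.97), for Gnmt Rap1a (0.98), Ncoa4 (0.97) and Slc14a2 (0.93), and for Fah Ctdspl (0.99), Actr1a (0.99) and the metallothionein gene Mt2A (0.98). For Glul they were the autophagy gene Map1lc3a (0.99), Acy1 (0.99), which frees amino acids from their acetylated form, and Chac1 (0.99).

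The arrays carried strong markers of fast muscle: the 9 markers were all measured, and their summed linear signal was 249000 to 256000 in vehicle, 232000 to 237000 in dexamethasone and 238000 to 251000 in the combination. Of 5 liver markers 4 were below the filter, among them Alb, and the sum was 206 to 299 in vehicle, 209 to 292 in dexamethasone and 221 to 333 in the combination. The 6 slow-fibre markers summed to 2470 in combination replicate 1 and to between 43200 and 115000 on the other 8 arrays. Fibroblast markers (7 of 7 measured) summed to 24900 to 36900 in vehicle, 4450 to 15300 in dexamethasone and 12200 to 28100 in the combination, and leukocyte markers (8 on the array, 7 past the filter, Adgre1 below it) to 1720 to 1920, 861 to 3110 and 885 to 1970. The satellite cell list had 1 of 3 markers on the array, Cdh15, which moved in the same direction as the 6 genes: 218 to 403 in vehicle, 572 to 859 in dexamethasone and 260 to 360 in the combination. In whole muscle a change in the number of cells of a type and a change of RNA per cell cannot be told apart, and the part of these markers in the enzyme values was not tested.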

How the data were processed

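Total RNA of 9 gastrocnemius samples was hybridised to 1 array each. The deposited values are linear intensities, 1 per probe set, made by the authors with a signal algorithm that is not given in the sources used here. In 5 arrays the mean without the extreme 2% at each end was 500, and in 4 it was 113.0 to 206.7.

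After 57 control probe sets were left out, log2(intensity + 16) was quantile normalized (limma 3.58.1, R 4.3.3). Those whose mean over the 9 arrays reached the 40th percentile, 18625, were fitted by limma (lmFit, eBayes) with a mean per group. Benjamini-Hochberg adjustment ran over all of them within each comparison; passing means an adjusted p below 0.05. P-values set each difference against the spread within groups. That spread holds animals and technical batches together, since the main fit had no batch term. The code was checked on simulated arrays without batches, where a large change was added to probe sets of low spread. That check does not show how well smaller changes or noisier genes are found.

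A gene is its probe set with the highest mean. Symbols came from the platform annotation, updated by gene ID to GRCr8. Batches were set from the deposited scale, which is the mean over probe sets given above, and from the ratio of Dap to Cre control signals. Only the latter is free of muscle genes. The members and lists were chosen with earlier results of these data known. Named are all member probe sets, up to 6 other genes per list that passed, a fixed set of partner enzymes, and the 3 genes most correlated with each of 5 members. Alternatives were another scaling, pseudocounts of 1 and 64, other filters, an intensity trend, replicate or batch terms, and leaving out arrays.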

Additional observations from a re-analysis of the deposited data

How the results depend on the processing

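The count of probe sets that passed in dexamethasone against vehicle, 196, became 130 with median scaling, 54 with a pseudocount of 1, 414 with 64, 48 with no filter, 469 with a filter at the 60th percentile, 510 with an intensity trend and robust variance, 460 without batch C, and 1 to 340 when a single array was left out. Of the 7 member probe sets, 3 passed with a pseudocount of 1 and 3 with no filter, and 0 to 7 when a single array was left out. In the combination against dexamethasone the total of 21 became 6, 5, 102, 0, 83, 149 and 39 under the same settings in that order, and 0 to 67 without a single array. The member count there, 1, became 2 with median scaling, 0 with a pseudocount of 1, 3 with 64, 0 with no filter, 3 with an intensity trend, 0 with batch as a term, 0 without batch C and 0 to 1 without a single array. The count was 1 without vehicle replicate 1, where Fah itself did not pass (adjusted p = 0.126, limma). In the combination against vehicle 0 passed under all settings run, with 728 to 1807 at an unadjusted p below 0.05. The cause of these shifts was not tested.

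Whether the replicate numbers pair the arrays was not settled: deviations of same-numbered arrays from their group means correlated at -0.09 to 0.40, above 0.1 in 3 of 9 pairs. Of the 9 arrays, 5 correlated best with their own number. With the number as a block, 13 probe sets passed in dexamethasone against vehicle, 1 of them a member, and 0 in the combination against dexamethasone, 0 of them members, so that Fah (adjusted p = 0.115, limma) and Gadl1 (adjusted p = 0.0731) did not pass in the latter. Number and technical batch coincide on 8 of the 9 arrays, so a link between same-numbered animals and a shared batch cannot be told apart.

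Signs turned only in differences that did not pass. With median scaling, dexamethasone against vehicle gave 0.19 and 0.25 for the Glud1 probe sets and 0.32 for Gpt; the combination against vehicle gave 0.35 and 0.13 for Glud1, 0.24 for Got2 and 0.24 for Gadl1. With batch as a term Glud1 (1387878_at) was 0.025 in the former and Gpt -0.063 in the latter. Without batch C, Glud1 was 0.094 and 0.019 and Gpt -0.0093 against vehicle, and Glud1 (1387878_at) 0.052 against dexamethasone. Leaving out single arrays gave, in dexamethasone against vehicle, -0.30 to 0.46 for Got1, -0.043 to 0.12 for Got2 and -0.23 to 0.23 for Gpt. In the combination against dexamethasone it gave -0.21 to 0.21 for Glud1 (1387878_at), -0.21 to 0.10 for Got2 (1389871_at) and -0.070 to 0.39 for Gpt. Against vehicle it gave -0.22 to 0.094 and -0.37 to 0.019 for Glud1, -0.30 to 0.92 for Glul (1367633_at) and -0.0098 to 0.25 for Gpt.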
